A study of Mus musculus with 2 samples.

Results

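The miR-200 family, miR-205, miR-203 and the miR-183 cluster were examined in B16 cells, a mouse melanoma line. The 10 mature miRNAs were chosen by name: miR-200a-3p, miR-200b-3p, miR-200c-3p, miR-141-3p, miR-429-3p, miR-205-5p, miR-203-3p, miR-182-5p, miR-183-5p and miR-96-5p. They are 10 of the 1900 miRNA probes on a Toray 3D-Gene array, each printed as 1 spot. Cells were kept in medium with 5% serum, and siRNA was given after 24 h of preincubation. One group received a control siRNA and the other an siRNA against Fam222B, both with the same lipid reagent, and total RNA was taken 48 h later. Each group had 1 array (n = 1), so the spread between cultures is unknown and the groups could not be tested against each other. The probes capture miRNAs, so the level of Fam222B itself was not measured.

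The miR-200 family and miR-205 hold epithelial cells in their epithelial state, chiefly by repressing the Zeb transcription factors, which in turn repress the genes of the miR-200 family. miR-203 is a miRNA of the skin epithelium, where in the mouse it represses p63 and promotes differentiation. miR-183, miR-96 and miR-182 are made from one transcript that is abundant in sensory cells of the eye and ear, and miR-182 is known in human melanoma to repress MITF and FOXO3. Melanocytes come from the neural crest and are not epithelial cells. The measurements bear on whether the epithelial set and the miR-183 cluster gave signal above background in B16 cells, and whether that differed with the Fam222B siRNA.

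The mature sequences are shown because close relatives in this set differ by few bases, and a hybridisation signal for one can include another. All 10 members matched a RefSeq entry of build GRCm38.p6. Capitals mark the seed, bases 2 to 8 from the 5′ end, which selects targets.
mmu-miR-200a-3p: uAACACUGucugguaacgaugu
mmu-miR-141-3p: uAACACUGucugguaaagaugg
mmu-miR-200b-3p: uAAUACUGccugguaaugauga
mmu-miR-200c-3p: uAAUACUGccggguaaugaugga
mmu-miR-429-3p: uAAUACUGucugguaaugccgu
mmu-miR-205-5p: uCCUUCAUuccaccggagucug
mmu-miR-203-3p: gUGAAAUGuuuaggaccacuag
mmu-miR-183-5p: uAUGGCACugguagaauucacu
mmu-miR-96-5p: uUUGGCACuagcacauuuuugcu
mmu-miR-182-5p: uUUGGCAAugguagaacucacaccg

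miR-200a-3p and miR-141-3p share one seed, and miR-200b-3p, miR-200c-3p and miR-429-3p share another. Aligned from the 5′ end with no gaps, miR-200a-3p and miR-141-3p were identical at 20 of 22 positions, as were miR-200b-3p and miR-200c-3p. The 2 seeds of the family differ at 1 base, written C4U from miR-200a-3p to miR-200b-3p with positions counted from the 5′ end. In the other cluster, miR-182-5p and miR-183-5p were identical at 18 of 22 positions, while miR-183-5p and miR-96-5p matched at 13 of 22. Outside the members, 1 miRNA of the RefSeq table carries a member's seed, miR-1271-5p with that of miR-96-5p, and no probe of that name was used here.

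The 10 miRNAs come from 5 places in the genome (RefSeq, GRCm38.p6). miR-200b-3p, miR-200a-3p and miR-429-3p lie on the minus strand within 1791 bases, at chr4:156053916-156055706, where the annotation has the long noncoding RNA Gm13648. miR-200c-3p and miR-141-3p lie on the minus strand within 430 bases, at chr6:124717917-124718346, with no other annotated gene across the mature sequences. The miR-183 cluster lies on the minus strand within 3771 bases, at chr6:30165962-30169732, inside the span of its host RNA Mirc35hg. miR-205-5p is at chr1:193507503-193507524 on the minus strand, inside the span of its host RNA Mir205hg. miR-203-3p is at chr12:112130927-112130948 on the plus strand. Exons and introns of these host RNAs were not resolved here.

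Signal was read against the empty (BLANK) spots of the same array. The 896 BLANK spots averaged 70.3 units (SD 1.54) on the control-siRNA array and 69.9 units (SD 1.66) on the Fam222B-siRNA array. Net signal is the spot median minus that mean, and a miRNA was called detected when its net signal exceeded 2 SD, which is 3.08 units in control-siRNA and 3.32 units in Fam222B-siRNA. At this threshold 36 of the 896 BLANK spots (4.02%) were themselves above it on the first array and 26 (2.90%) on the second. The arrays also carry 32 Negative Control spots, of which 2 and 0 passed, with highest net signals of 4.67 and 2.89 units. One of these controls, Negative Control 3, averaged 2.67 units (SD 1.07, 8 spots) on the control-siRNA array and 1.65 (SD 0.832, 8 spots) on the Fam222B-siRNA array. Net signals of 2 to 3 units were thus also seen at spots named as negative controls.

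The epithelial set and the miR-183 cluster lay at or just above background in both groups. Of the 10 members, 4 were detected in control-siRNA cells, where 55.6% of all 1900 probes were, and 3 in Fam222B-siRNA cells, where 46.2% of all probes were. Both arrays detected miR-182-5p and miR-96-5p, 2 of 10 members, against 43.3% of all probes. The highest net signal of any member was 6.64 units, for miR-96-5p in control-siRNA cells. No member reached 5 SD of the BLANK spots on either array, a level passed by 31.3% of all probes with control siRNA and 27.5% with Fam222B siRNA.

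**Figure D1:**
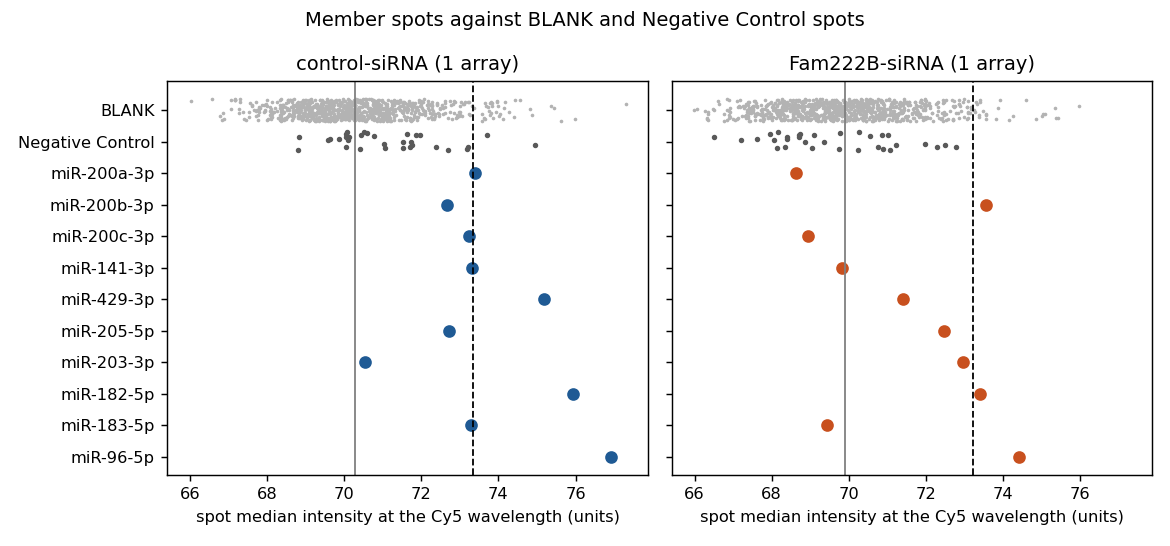
Spot median intensity (horizontal axis, units) of the 10 members on each array, with 1 spot per member, beside the 896 BLANK and 32 Negative Control spots, spread vertically for display. The grey line is the BLANK mean and the dashed line the detection threshold, above which 4 members lie on the control-siRNA array and 3 on the Fam222B-siRNA array.

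miR-96-5p of the miR-183 cluster stood highest above the BLANK spots on both arrays, and miR-182-5p came next with control siRNA but after miR-200b-3p with Fam222B siRNA. miR-96-5p, which in mice and humans is needed for the maturation of hair cells of the inner ear, gave 6.64 net units with control siRNA and 4.53 with Fam222B siRNA. These are 4.31 and 2.73 SD of the BLANK spots, and 1 and 9 of the 896 BLANK spots were as bright or brighter. miR-182-5p gave 5.66 and 3.53 net units, or 3.68 and 2.12 SD, with 2 and 18 BLANK spots as bright. Both miRNAs were above every Negative Control spot of their array. With Fam222B siRNA this holds for any detected probe, since the highest Negative Control spot, at 2.89 net units, was below the threshold of 3.32. miR-183-5p, from the same transcript, gave 3.02 net units in control-siRNA cells, a margin of -0.055 units to the threshold, and -0.45 in Fam222B-siRNA cells. So 2 of 3 cluster members passed on each array, and the third passed on neither. Of all probes, 55.6% passed with control siRNA and 46.2% with Fam222B siRNA.

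The first miR-200 seed group, miR-200a-3p and miR-141-3p, gave close values with control siRNA and lay 1.18 units apart with Fam222B siRNA. miR-200a-3p had 3.12 net units in control-siRNA cells, 0.046 units above the threshold, and -1.25 in Fam222B-siRNA cells. miR-141-3p had 3.05 net units, just below the threshold, and -0.071. The opposite calls for these relatives in control-siRNA cells rest on a difference of 0.072 units, where the BLANK SD was 1.54.

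In the second seed group each array detected 1 of 3 members. miR-429-3p gave 4.91 net units in control-siRNA cells, above all 32 Negative Control spots, and 1.52 in Fam222B-siRNA cells, where 157 BLANK spots were as bright. miR-200b-3p had its higher value on the other array, with 2.38 net units in control-siRNA and 3.66 in Fam222B-siRNA cells. miR-200c-3p, which differs from miR-200b-3p at U11G and A22G over the first 22 positions, gave 2.95 and -0.94 net units and passed on neither array. The differences between arrays of all 3 were within 2 spot SD, so no difference in behaviour among them is shown. In all, 2 of the 5 miR-200 family members passed with control siRNA (55.6% of all probes) and 1 with Fam222B siRNA (46.2%). No family member passed on both arrays, where 43.3% of all probes did.

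The keratinocyte-associated pair passed on neither array at the main threshold, where 55.6% and 46.2% of all probes did. That call moved with the background. Of 8 other settings, miR-205-5p stayed undetected in 5 with control siRNA and 4 with Fam222B siRNA. For miR-203-3p these counts were 8 and 3. miR-205-5p, a miRNA of stratified and glandular epithelia, gave 2.45 net units in control-siRNA and 2.59 in Fam222B-siRNA cells, where 63 and 60 BLANK spots were as bright. miR-203-3p gave 0.27 and 3.08 net units, the latter with a margin of -0.24 units to the threshold. With 348 BLANK spots as bright in control-siRNA cells, miR-203-3p was the member nearest to the BLANK mean on that array.

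Ordered by net signal, the members ran over 6.37 units with control siRNA and 5.78 with Fam222B siRNA. The order describes distance from background and not abundance, since probes differ in how strongly they bind and label. The SD of a difference between a pair of BLANK spots was 2.18 units on the first array and 2.35 on the second. The widest gap between neighbours in the order was 2.11 units, between miR-200b-3p and miR-203-3p in control-siRNA cells, so no neighbours on either array were apart by more than that SD. Under 1 unit from the threshold lay 6 members in control-siRNA and 4 in Fam222B-siRNA cells.

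The number of members called moved with the background and threshold used. With 5% of the BLANK spots left out at each end, 9 of 10 members passed in control-siRNA cells (64.2% of all probes), 4 in Fam222B-siRNA cells (50.4%) and 3 on both arrays (47.9%). With the No Probe spots as background the counts were 7 (60.3%), 5 (55.7%) and 2 (51%). With the BLANK spots of each probe's own block they were 4 (56.3%), 4 (47.3%) and 2 (44.2%), and with the Negative Control spots 3 (50.4%), 4 (48.1%) and 2 (42.9%). At 3 SD of all BLANK spots, 3 passed in control-siRNA cells (44.7% of all probes), 0 in Fam222B-siRNA cells (37.3%) and 0 on both arrays (34.5%). At 5 SD the share of all probes detected on both arrays was 25.6%, and 0 members passed. The authors' deposited table lists values for 9 members in control-siRNA cells (64.2% of all probes), for 5 in Fam222B-siRNA cells (50.6%) and for 4 on both arrays (48.1%). The 3 members called at 3 SD were miR-429-3p, miR-182-5p and miR-96-5p, which were also called under each of the other settings but 5 SD in control-siRNA cells. miR-203-3p in control-siRNA cells, and miR-200a-3p, miR-200c-3p, miR-141-3p, miR-429-3p and miR-183-5p in Fam222B-siRNA cells, were called by none of the 9 settings.

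**Figure D2:**
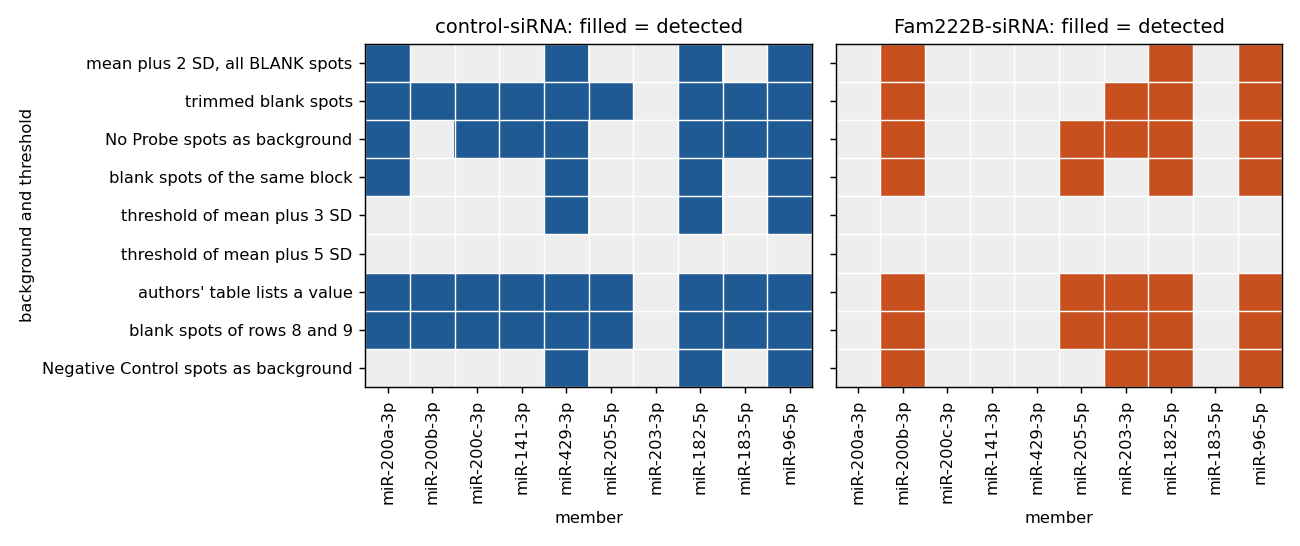
Detection of each member (columns) under each background and threshold (rows), for control-siRNA (left) and Fam222B-siRNA (right), with filled cells for detected. The count of members called ranges from 0 to 9 on the left and from 0 to 5 on the right.

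The background spots do not sit where the members do. All 10 members were printed in row 1 of their blocks, while the BLANK spots fill rows 8, 9 and 10, and row 1 holds 0 BLANK spots. BLANK spots of row 10 averaged 71.1 units on the control-siRNA array, against 69.7 in row 8 and 69.8 in row 9. On the Fam222B-siRNA array these means were 71.0, 69.1 and 69.5 units. With rows 8 and 9 alone as background, 9 members passed in control-siRNA cells (65.3% of all probes), 5 in Fam222B-siRNA cells (52.9%) and 4 on both arrays (50.3%). Among the 320 miRNA probes of row 1, 68.8% were detected with control siRNA and 54.7% with Fam222B siRNA, against 47.3% and 38.6% of the 960 in rows 2 to 4. The part of the row in the members' values was not tested.

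The GC content of 9 of the 10 members was below the median of the other probes, and that of miR-205-5p was above it. It ran from 36.4% for miR-200b-3p to 54.5% for miR-205-5p, with a median of 40.9%, against a median of 52.4% over the 1604 other probes with a RefSeq sequence. Over all 1614 such probes, detection went up with GC content. Of the probes above 30% and up to 40% GC, 28.3% were detected in control-siRNA cells, and of the 330 above 60% and up to 70%, 80.3% were. Among the 886 probes within the GC range of the members, 44.0% were detected in control-siRNA and 33.7% in Fam222B-siRNA cells. Set beside these shares, 4 and 3 of the 10 members were detected. Among the 198 of these probes printed in row 1, 65.2% and 52.5% were detected. The part of GC content in the members' low signal was not tested.

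**Figure D3:**
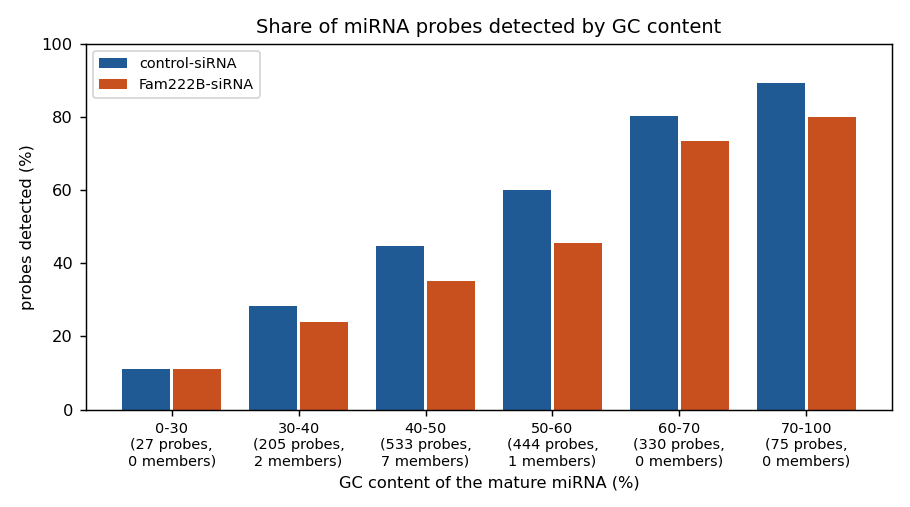
Share of miRNA probes detected (vertical axis, percent) by GC content of the mature miRNA (horizontal axis, percent), for control-siRNA (blue) and Fam222B-siRNA (orange), with the number of probes and members under each class. In control-siRNA cells the share goes from 28.3% of probes at 30 to 40% GC to 80.3% at 60 to 70% GC, and 7 of the 10 members fall between 40 and 50%.

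The other arms of the member hairpins also lay near background. Of these 10 passenger strands, 2 were detected with control siRNA (55.6% of all probes) and 0 with Fam222B siRNA (46.2%). They are not printed where the members are, since 8 of the 10 lie in rows 2 to 4, where 47.3% and 38.6% of probes were detected. miR-183-3p gave 4.68 net units in control-siRNA and 2.04 in Fam222B-siRNA cells, and miR-200c-5p gave 3.96 and 2.14. In both hairpins the partner listed among the members was not detected on either array. The other 8 passenger strands lay between -0.34 and 2.65 net units in control-siRNA cells. For miR-182 and miR-96, whose main strands were detected on both arrays, the passenger strands miR-182-3p and miR-96-3p gave 2.13 and 2.28 net units in control-siRNA cells and 0.18 and -0.11 in Fam222B-siRNA cells. Net signal was lower on the Fam222B-siRNA array for all 10 passenger strands, as it was for 72.6% of all probes. The share was 80.1% of probes dimmer than the brightest member on both arrays, a cut that itself favours lower values there. All 10 differences of the passenger strands were within 2 spot SD, as built on the BLANK SDs.

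The arrays did register miRNAs of the melanocyte lineage. miR-211-5p, encoded within the melanocyte gene Trpm1 (chr7:64205831-64205852, plus strand, GRCm38.p6), gave 264 net units in control-siRNA and 326 in Fam222B-siRNA cells, or 172 and 196 SD of the BLANK spots. All 3 melanocyte lineage probes were detected on both arrays, with miR-211-3p at 83.3 and 70.4 net units and miR-204-5p at 36.3 and 30.2. By their names miR-211-5p and miR-211-3p are cut from the same hairpin, so the 3 probes are not 3 separate markers. Whether the miR-204-5p spot includes signal from the brighter miR-211-5p was not tested. The 6 fibroblast and smooth muscle miRNAs were also all detected on both arrays (43.3% of all probes). They ran from 10.3 to 140.0 net units in control-siRNA and from 11.6 to 112 in Fam222B-siRNA cells. The defining miRNA of the lineage was thus present under the melanoma label. Its level was not equal on the arrays: miR-211-5p differed by 0.28 on the log2 scale with offset (Fam222B-siRNA over control-siRNA, spot SD 0.082). Past 2 spot SD were 1 of the 3 melanocyte probes and 3 of the 6 fibroblast and smooth muscle probes, against 9.72% of all 823 miRNAs detected on both arrays. The latter were miR-143-3p at -0.22, miR-145a-5p at -0.12 and miR-143-5p at 0.12.

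Markers of muscle, liver, blood and neurons also gave low signal, with some detected. The fibroblast and smooth muscle markers given above ran higher, up to 140.0 net units in control-siRNA cells. The 3 muscle miRNAs gave 2.96 to 5.63 net units in control-siRNA cells, where 2 were detected (55.6% of all probes). In Fam222B-siRNA cells they gave -1.24 to 3.31, and 0 were detected (46.2% of all probes). miR-122-5p, the liver miRNA, gave 0.28 and 1.09 net units. Of 6 blood miRNAs, 4 were detected with control siRNA (55.6% of all probes) and 1 with Fam222B siRNA (46.2%). That one, the red cell miRNA miR-451a, gave 13.5 and 12.2 net units, and miR-223-3p of myeloid cells gave 5.05 and 0.64. The neuronal miR-124-3p gave 3.56 and 1.51 net units, and miR-128-3p 11.4 and 8.13.

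**Figure D4:**
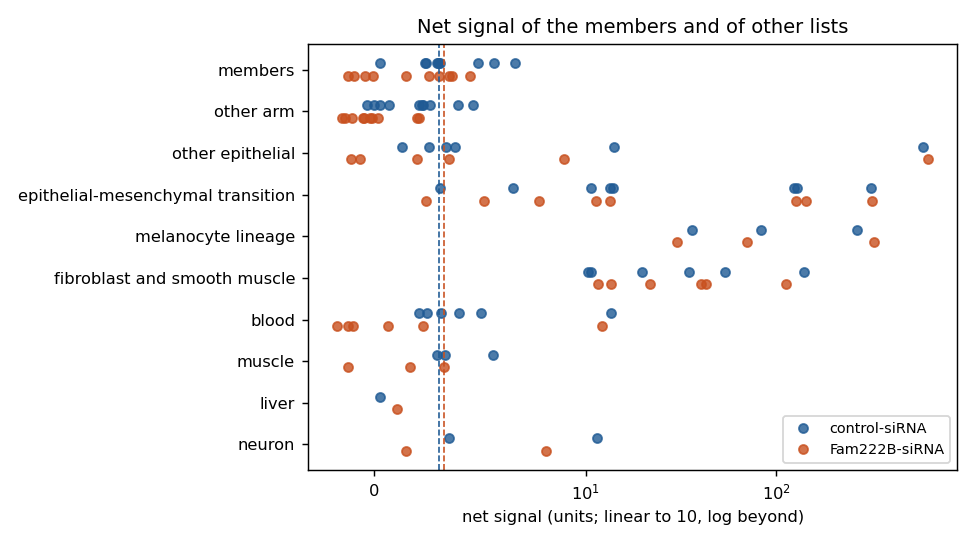
Net signal (horizontal axis, units, linear up to 10 and logarithmic beyond) of the members and of the other lists, 1 point per probe and array, with dashed lines at the detection thresholds of 3.08 units (control-siRNA, blue) and 3.32 units (Fam222B-siRNA, orange). All members lie at or below 6.64 units, the muscle markers at or below 5.63 units, and the melanocyte lineage lies at 30.2 units and above. The fibroblast and smooth muscle markers lie between 10.3 and 140.0 units.

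Other miRNAs tied to epithelia were mixed. Of 6 probes, 4 were detected in control-siRNA (55.6% of all probes) and 3 in Fam222B-siRNA cells (46.2%). miR-31-5p, found in skin and also in many tumours, gave 590 net units in control-siRNA and 625 in Fam222B-siRNA cells, the one bright member of that list. miR-194-5p, an intestinal and liver miRNA, gave 14.02 and 8.95 net units, and miR-192-5p, which lies beside one copy of miR-194 in the genome, 3.41 and 3.53. miR-375-3p, of pancreatic islets and secretory epithelia, gave 3.84 and 2.03. miR-215-5p, at 2.58 and -0.66, and miR-184-3p of the cornea and lens, at 1.33 and -1.09, were detected on neither array.

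miRNAs linked to the epithelial to mesenchymal transition ran from near background to far above it. Their median net signal was 13.6 units in control-siRNA and 12.3 in Fam222B-siRNA cells. The list was not sorted by whether a miRNA promotes or opposes the transition. All 8 were detected with control siRNA (55.6% of all probes) and 7 with Fam222B siRNA (46.2%). miR-21a-5p, widely raised in tumours, gave 313 and 319 net units, miR-9-5p, which represses E-cadherin in human cells, 129 and 143, and miR-34a-5p, a p53 target, 123 and 127. Nearest to the BLANK mean was miR-155-5p, at 3.12 and 2.43 net units, and next miR-101a-3p, at 6.58 and 5.17, close to miR-96-5p. Of the 7 detected on both arrays, 0 were past 2 spot SD, and their median log2 difference was 0.

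Between the groups, 7 of the 10 members had lower and 3 had higher net signal in Fam222B-siRNA cells. The largest decrease was that of miR-200a-3p, from 3.12 to -1.25 net units, a difference of -4.37 units with a spot SD of 2.27. The largest increase was that of miR-203-3p, from 0.27 to 3.08, a difference of 2.81 units. All 10 differences were within 2 spot SD, where 8.47% of all probes, bright ones included, were past it. The spot SD combines the BLANK SDs and the spread of bright repeated control probes, and says nothing of the spread between cultures. The 17 dim control probes printed 8 times had pooled SDs of 1.18 and 1.56 units, below the BLANK SDs of 1.54 and 1.66. A spot SD built on them would be smaller, and the difference of miR-200a-3p, -4.37 units, would be past 2 of it. That all 10 differences were within 2 spot SD thus holds for the SD built on BLANK spots. With 1 array per group, neither SD tests a difference between the groups.

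The lower values were shared by dim probes at large. Net signal was lower in Fam222B-siRNA cells for 72.6% of all probes. It was also lower for 80.1% of the 1108 probes dimmer than the brightest member on both arrays. That cut used the members' own highest values, 6.64 units in control-siRNA and 4.53 in Fam222B-siRNA cells. Being lower for the second array, the cut itself favours probes with lower Fam222B-siRNA signal. The median difference over those 1108 probes was -1.32 units and that of the members -2.63. Over the 320 miRNA probes of row 1, where all members were printed, it was -2.03 units, bright probes included. Of those 320 probes, 75.9% were lower. The No Probe spots, which carry no capture sequence by their name, averaged 0.057 net units in control-siRNA and -0.65 in Fam222B-siRNA cells, and the Negative Control spots 0.84 and -0.29. The part of this shift of dim and control spots in the members' differences was not tested. In bulk RNA, fewer cells with a miRNA and less of it per cell cannot be told apart either.

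**Figure D5:**
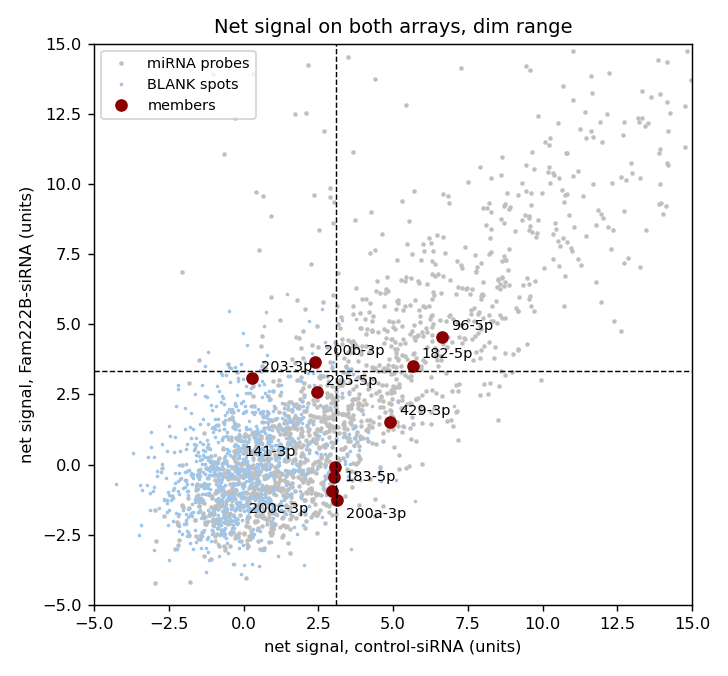
Net signal in Fam222B-siRNA (vertical axis, units) against control-siRNA (horizontal axis, units) for miRNA probes (grey), BLANK spots (light blue) and the 10 members (dark red, labelled without the prefix miR), with dashed lines at the detection thresholds. The axes stop at 15 units, so brighter probes are not shown. Only miR-182-5p and miR-96-5p lie above both thresholds, and 7 members had lower net signal in Fam222B-siRNA cells.

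For the 2 members detected on both arrays, a difference on a log2 scale could be given. After normexp background correction with an offset of 50 units and quantile normalization, miR-96-5p differed by -0.030 (Fam222B-siRNA over control-siRNA, spot SD 0.056) and miR-182-5p by -0.028 (spot SD 0.057). Their median was -0.029, and that of all 823 miRNAs detected on both arrays was -0.0026. Neither differed by 2-fold, nor did any of the 823 (0%). The offset damps the differences of dim spots. With the BLANK mean subtracted, no offset and equal medians, miR-96-5p was at -0.44 and miR-182-5p at -0.57, so the size moved with the scale. On that scale 1.94% of the 823 were 2-fold higher and 1.22% 2-fold lower. With the files' own background column, miR-182-5p was at 0.024 and miR-96-5p at -0.051.

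For members detected on one array only, a cautious ratio was taken on the scale with offset, which damps differences of dim spots. It was set against the dim array, taking the higher of its lowest detected signal and the member's signal there. This ratio was 1.01-fold higher in control-siRNA for miR-429-3p and 1.03-fold higher in Fam222B-siRNA for miR-200b-3p. These values carry no spot error. The net differences of both were within 2 spot SD, so no direction is shown. For miR-200a-3p no ratio above 1 was obtained. Detection on the control-siRNA array alone held for 12.3% of all probes, and on the Fam222B-siRNA array alone for 2.84%.

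The probes whose pair of net signals lay nearest to that of miR-96-5p, the brightest member detected on both arrays, were miR-7012-3p, miR-7050-3p and miR-3076-5p. Their distances from it over the 2 arrays were 0.14, 0.18 and 0.24 units, and 41 probes lay within 1 unit. The likeness is in spot brightness alone.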

How the data were processed

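Per the file headers, the deposited scanner files give each spot's median intensity at 635 nm and a background median, with no subtraction, and the labels' protocols name Cy5 labelling of total RNA for the Toray 3D-Gene array. Each array has 3200 spots in 32 blocks. Scanner and software: not given in the sources used here. The authors' deposited table of processed intensity values was a straight line in the spot median of each array (slopes 3.40 and 3.69, background 70.2 and 69.8 units), linear and not centred, with column medians of 25 and 34.6. It listed 1220 and 961 probes, with lowest listed spots of 72.6 and 72.5 units.

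Groups followed the labelled treatment, with 1 array each, so there was no test. Net signal and detection were computed from all BLANK spots of an array. Spot SD came from the BLANK SD and 5 bright control probes printed 8 times (pooled CV 4.67% and 4.78%). Log2 differences used normexp (offset 50) and quantile normalization over miRNA probes in limma 3.58.1 (R 4.3.3), with spots marked NG left out. The steps were tested on simulated data. How well they call or compare spots as dim as the members is not shown here. The members and lists were chosen with earlier results of these data known. Named miRNAs are the members, their other arms, miRNAs with a member's seed, the lists given in the text, and the 3 probes nearest to the brightest member. The files name no genome build, and sequences and coordinates are from RefSeq (GRCm38.p6). The number of arrays limits the precision.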

Additional observations from a re-analysis of the deposited data

How the results depend on the processing

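Detection counts depended on the background, and so did the shares of all probes detected. Over the settings these shares ran from 31.3% to 65.3% in control-siRNA and from 27.5% to 55.7% in Fam222B-siRNA cells. On both arrays they ran from 25.6% to 51%. In control-siRNA cells 4 members became 9 with trimmed BLANK spots, 7 with No Probe spots, 9 in the authors' table, 9 with BLANK spots of rows 8 and 9 and 0 at 5 SD. In Fam222B-siRNA cells 3 became 5 with No Probe spots, 5 in the authors' table, 5 with rows 8 and 9, 0 at 3 SD and 0 at 5 SD. On both arrays 2 became 4 in the authors' table, 4 with rows 8 and 9, 0 at 3 SD and 0 at 5 SD. The block's own BLANK spots and the Negative Control spots kept each count within 1.5 times. The rows 8 and 9 and Negative Control settings were chosen after seeing the data.

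The median log2 difference of the 2 members detected on both arrays was -0.51 with the BLANK mean subtracted and equal medians, -0.62 with no scaling (where all miRNAs detected on both arrays had a median of -0.11), -0.46 with the block's BLANK mean and -0.49 in the authors' table. Each of these has no offset, which by construction widens differences of dim spots. It stayed within the spot SD of -0.029 with an offset of 16, with the files' own background column and without blocks 17, 18, 25 and 26, which removed miR-96-5p. Neither of these 2 members differed by 2-fold in any of these settings, nor by 1.5-fold on the main scale. The other members were not counted, since log2 differences were given only for members detected on both arrays. The setting limited to members at the median signal of miRNAs detected on both arrays gave no value, since 0 members reached it. No paired analysis was possible because each group had 1 array. Signal within a few units of the BLANK mean limits every value of the members.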

Other observations

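The background column of the scanner files was at or above the spot for 6 of the 10 members on each array. For miR-182-5p it exceeded the spot by 6.35 units in control-siRNA and by 2.43 units in Fam222B-siRNA cells.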
